A study of Mus musculus with 22 samples.

Results

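The nuclear-encoded subunits of the 5 respiratory chain complexes were followed in cultured myeloid cells and tumor samples of VISTA knockout (KO) and wild-type (WT) mice. VISTA is an immune checkpoint protein encoded by Vsir. Members were the rows of the 3 raw count tables whose gene symbol begins with Nduf followed by a subunit letter and a digit, with Uqcr or Atp5, with Cox4i, Cox5, Cox6, Cox7 or Cox8, or is Sdha, Sdhb, Sdhc, Sdhd or Cyc1. Names ending in -ps and a digit were left out. This gave 88 of 35255 genes listed in any table: 40 of complex I, 4 of complex II, 9 of complex III, 17 of complex IV and 18 of complex V. Copy genes annotated as processed pseudogenes stayed among these members. They are Ndufa12-ps, Ndufb4c and Ndufs6b in complex I and Atp5c1-ps in complex V. The row of Ndufb1 is annotated as a long noncoding RNA of a bidirectional promoter and was counted as an accessory subunit of complex I. Ndufa4 and Ndufa4l2, named after complex I, were counted with complex IV, where Ndufa4 is now placed. The normoxia table lists 88 members, and the hypoxia and tumor tables list 87 each.

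The groups were KO and WT bone marrow myeloid cells cultured in normoxia until day 4 (n = 4 each), KO and WT bone marrow myeloid cells in hypoxia for 24 hours (n = 4 each), and MC38 tumor samples of KO and WT mice at day 7 (n = 3 each). The strain is given as C57BL/6N for both genotypes. The labels describe the normoxia cultures as grown from bone marrow progenitors with GM-CSF and IL-6, and as independent biological replicates. No such statement is given for the hypoxia cultures or the tumors, so p-values there measure the spread between these samples, which may be technical. MC38 cells are a colon carcinoma line of the mouse. For the tumor samples the labels name tumor tissue without a purification step, whereas the deposited tumor table is named for MDSC, myeloid-derived suppressor cells. Whether these libraries come from whole tumors or from cells taken out of them is therefore not known, and "tumors" below means these samples. Monocyte and macrophage markers were far above epithelial markers in each of them, with values given beside the tumor results. Culture columns not named WT bear a code in place of a genotype and were read as KO.

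The respiratory chain sits in the inner mitochondrial membrane. Complex I takes electrons from NADH and complex II takes them from succinate, coenzyme Q carries them to complex III, cytochrome c carries them on to complex IV, and complex IV passes them to oxygen. Complexes I, III and IV pump protons as electrons pass, and complex V, the ATP synthase, makes ATP from the returning protons. Complexes I, III, IV and V also hold subunits made from the mitochondrial genome, whereas all complex II subunits are nuclear-encoded. Complex II is also an enzyme of the citric acid cycle.

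The targeted gene Vsir was lower in KO than in WT samples, with no overlap in any experiment. In normoxia its lowest, median and highest levels were 139, 164 and 242 CPM (counts scaled to the library total) in KO cultures, against 651, 672 and 856 CPM in WT cultures. In hypoxia they were 113, 156 and 163 CPM in KO cultures, against 512, 530 and 611 CPM in WT cultures. Tumor values were 113, 114 and 128 CPM in KO, against 427, 469 and 480 CPM in WT. Depth ranged between 23409142 and 23722932 counts for normoxia libraries and between 30839108 and 31385825 for hypoxia libraries. Tumor KO libraries held 19119985 to 23089943 counts and tumor WT libraries 27452024 to 31716200. Members took 0.427% to 0.779% of a library's counts. CPM values are scaled by edgeR's TMM method within each experiment unless another scaling is named.

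In the summed level of the members, KO replicate 4 was the lowest KO library in normoxia and WT replicate 1 the highest WT library in hypoxia. No complex sum was among the outlying values given at the end. Normoxia KO replicate 4 had a sum of 5350 CPM, against 6035 to 6596 CPM in the other 3 KO libraries, and was the lowest KO library in each complex. Hypoxia WT replicate 1 had 6238 CPM, against 5233 to 5842 CPM in the other 3 WT libraries, and was the highest WT library in each complex.

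In hypoxia, subunit genes of all 5 complexes were lower in KO than in WT cultures. Complex I genes summed to 1020 ± 43.1 CPM in KO and 1241 ± 83.7 CPM in WT cultures (SD, n = 4 each here and for the other complexes in hypoxia). The 4 genes of complex II summed to 261 ± 5.50 CPM in KO and 330.5 ± 17.5 CPM in WT. Complex III genes summed to 445 ± 11.54 CPM in KO and 562 ± 45.5 CPM in WT. For complex IV the sums were 925 ± 25.5 CPM in KO and 1116 ± 112 CPM in WT, and for complex V 1813 ± 76.5 CPM in KO and 2411 ± 227 CPM in WT. KO cultures thus held between 75.2% (complex V) and 82.9% (complex IV) of the WT sum, and the KO and WT libraries did not overlap in any complex. These are levels in bulk RNA, in which fewer cells of a type and less RNA per cell cannot be told apart.

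**Figure D1:**
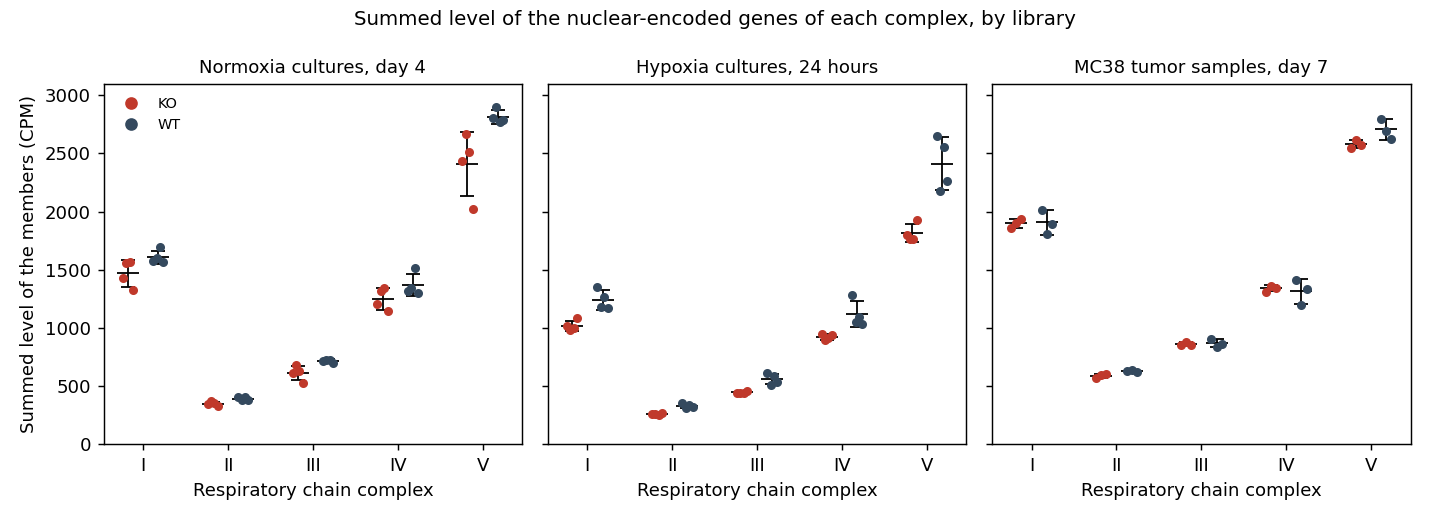
Summed level of the nuclear-encoded subunit genes of each complex (vertical axes, CPM, starting at 0) in each library of the KO and WT groups of the 3 experiments, with group means as horizontal lines and bars of 1 SD. In hypoxia the KO libraries lie below the WT libraries in all 5 complexes, and in normoxia KO replicate 4 is the lowest library in each complex.

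Of 86 members tested in hypoxia, 68 fell and 1 rose in KO cultures at an edgeR adjusted p under 0.05 (called). Among all 15018 tested genes, 17.6% were called lower and 17.4% higher, 34.9% in either direction. The median log2 fold change of the members was -0.37 (KO over WT), and that of all tested genes was -0.01. KO and WT libraries did not overlap, with KO lower, in 61 members, against 15.7% of all tested genes. Fold changes were smaller without WT replicate 1, when 55 members were called lower. Among all tested genes 1977 were then called lower, against 2638 with all libraries. Without it, the medians of complexes I to V were -0.30, -0.33, -0.34, -0.27 and -0.34, against -0.35, -0.37, -0.38, -0.32 and -0.40 with all libraries. The members that lost their call without it included Sdhd, Uqcrc2, Ndufa4 and Cox6a2. Of the 69 called members, 55 were called in every one of the 8 fits that left out 1 library.

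Marker genes of several cell types moved in the same comparison. Of 6 general leukocyte and myeloid genes, 5 were called higher in KO cultures, against 17.4% of all tested genes. Of 14 neutrophil markers, 13 were called higher in KO cultures in hypoxia, with summed levels of 55130 to 67690 CPM in KO and 27360 to 36720 CPM in WT libraries. All 10 markers of mast cells, basophils and eosinophils were called higher, with 2497 to 4207 CPM in KO and 1382 to 2202 CPM in WT. Of 11 monocyte and macrophage markers, 2 were called higher and 1 lower (2963 to 3528 CPM in KO, 3013 to 3554 CPM in WT). Of 6 tested erythroid markers, 4 were called lower (9.44 to 16.8 CPM in KO, 34.8 to 117 CPM in WT). The part of cell composition in the lower subunit levels was not tested.

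Complex I has more members than any other complex, with 39 tested in hypoxia and 30 called lower in KO cultures. Its 7 tested core subunits, the ones that carry the flavin and the iron-sulfur clusters, had a median log2 fold change of -0.31, and 6 were called lower. The 30 accessory subunits, which surround the core, had a median of -0.36, with 22 called lower. The copy genes Ndufa12-ps and Ndufb4c were called lower as well. The values of all complex I members ran from -0.80 (Ndufa12-ps) to 0.03, and the lowest value of a subunit gene was -0.70 (Ndufa5).

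Ndufa12, an accessory subunit of the arm that faces the matrix, had 16.7, 18.1, 16.2 and 19.8 CPM in KO cultures, against 32.5, 24.8, 29.2 and 24.4 CPM in WT cultures. Every KO library was below every WT library (log2 fold change -0.65 ± 0.11 SE, edgeR adjusted p = 0.000853). Reads of the copy gene Ndufa12-ps (-0.80 ± 0.18, adjusted p = 0.00642) may be shared with it. Ndufa9, an accessory subunit near the site where coenzyme Q binds, had 24.7, 27.3, 25.4 and 29.3 CPM in KO, against 41.7, 36.5, 40.5 and 35.7 CPM in WT. The groups did not overlap (-0.53 ± 0.08, adjusted p = 0.000496), and Ndufa9 shares exon bases with 1700018A23Rik on the other strand. Ndufb8, a subunit of the membrane arm, had 35.0, 33.2, 36.2 and 39.9 CPM in KO, against 53.8, 45.5, 49.1 and 49.2 CPM in WT. It was also lower in each KO library (-0.45 ± 0.08, adjusted p = 0.000999), and its exons share bases with the predicted gene Gm20538. Ndufv1, the core subunit that binds NADH and the flavin, had 35.2, 35.8, 39.1 and 40.9 CPM in KO, against 52.3, 45.1, 49.2 and 49.9 CPM in WT. Its log2 fold change was -0.38 ± 0.07 (adjusted p = 0.00228), again with no overlap.

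The complex I members not called in hypoxia included Ndufa6, Ndufa13, Ndufb1, Ndufb2, Ndufb3, Ndufb11, Ndufs4 and Ndufv3. Their log2 fold changes lay between -0.24 (Ndufb1) and 0.03 (Ndufv3). A p that misses the threshold does not show that these genes were equal in KO and WT cells. Ndufa13, Ndufb1 and Ndufb11 share exon bases with the opposite-strand genes Tssk6, Cpsf2 and Rbm10. Ndufb2 shares them with Braf and Gm16272 on the other strand and with Gm42420 on its own strand. Without a stated strand setting the reads of opposite-strand pairs cannot be told apart.

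All 4 genes of complex II were called lower in KO cultures in hypoxia. Sdha, the flavoprotein that oxidises succinate, had 113.3, 112.5, 108.5 and 120.2 CPM in KO, against 134.7, 125.4, 137.2 and 133.1 CPM in WT (-0.22 ± 0.06 SE, adjusted p = 0.012). Sdhb, the iron-sulfur subunit, had 38.1, 38.9, 40.2 and 38.0 CPM in KO, against 56.6, 51.0, 57.0 and 50.2 CPM in WT (-0.47 ± 0.07, adjusted p = 0.000315). Sdhc and Sdhd anchor the enzyme in the membrane. Sdhc had 51.4, 50.7, 50.4 and 51.6 CPM in KO, against 81.0, 72.4, 74.1 and 72.6 CPM in WT. Its fold change had the smallest p of the complex (-0.56 ± 0.06, adjusted p = 4.97e-05). Sdhd had 60.2, 55.4, 56.6 and 57.9 CPM in KO, against 78.2, 64.8, 71.5 and 62.2 CPM in WT (-0.27 ± 0.08, adjusted p = 0.0186). Sdhd was not called without WT replicate 1 (adjusted p = 0.0526), and lost its call in 4 of 15 alternatives, those without KO replicate 2 or WT replicate 3 among them. KO and WT libraries did not overlap in any of these 4 genes.

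In complex III, 8 of 9 members were called lower in KO cultures in hypoxia, with a median of -0.38. Cyc1, the cytochrome c1 that hands electrons to cytochrome c, had 43.5, 48.2, 43.7 and 48.4 CPM in KO, against 71.3, 56.8, 72.7 and 63.5 CPM in WT (-0.52 ± 0.08 SE, adjusted p = 0.000763). The small subunit genes Uqcr10 and Uqcr11 showed no overlap either. Uqcr10 had 16.2, 16.6, 16.5 and 18.2 CPM in KO, against 25.0, 22.9, 25.0 and 22.7 CPM in WT (-0.50 ± 0.07, adjusted p = 0.000461). Uqcr11 had 13.3, 14.2, 14.3 and 16.6 CPM in KO, against 26.9, 20.1, 24.6 and 20.7 CPM in WT, the lowest fold change in the complex (-0.66 ± 0.11, adjusted p = 0.000881). Uqcrc1, a large core protein on the matrix side, had 113.5, 116.2, 119.1 and 121.1 CPM in KO, against 160.1, 135.6, 162.3 and 153.9 CPM in WT (-0.38 ± 0.07, adjusted p = 0.00135). Uqcrfs1, the Rieske iron-sulfur protein, was called lower by 0.25 on the log2 scale (adjusted p = 0.0131). Uqcrh, the hinge protein, was the member not called (-0.13, adjusted p = 0.194).

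In complex IV, cytochrome c oxidase, 11 of 17 members were called lower and 1 higher in KO cultures in hypoxia. Of the 10 subunits common to most tissues, 8 were called lower, with a median of -0.34. Cox6b1, which faces the intermembrane space, had 77.4, 71.9, 72.8 and 73.5 CPM in KO, against 108.6, 95.7, 105.0 and 90.7 CPM in WT (-0.44 ± 0.07 SE, adjusted p = 0.000669). Cox6a1 had 110.5, 104.0, 104.8 and 108.1 CPM in KO, against 143.4, 123.7, 131.3 and 135.2 CPM in WT (-0.32 ± 0.06, adjusted p = 0.00227). Cox5a had 52.1, 45.3, 43.7 and 53.9 CPM in KO, against 78.8, 58.2, 67.9 and 62.9 CPM in WT (-0.46 ± 0.10, adjusted p = 0.00482). In each of these 3 genes the KO libraries lay below the WT libraries. Cox5a shares exon bases with the opposite-strand gene Gm26631.

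Subunit 4 of cytochrome c oxidase has a widely expressed form, Cox4i1, and a form known from lung and from cells at low oxygen, Cox4i2. Cox4i2 had 3.80, 3.96, 2.71 and 3.35 CPM in KO cultures in hypoxia, against 9.87, 9.64, 9.29 and 9.75 CPM in WT cultures. Its log2 fold change of -1.48 ± 0.12 was the lowest among the members (adjusted p = 9.21e-06). Cox4i1 had 133.1, 128.7, 139.2 and 130.3 CPM in KO, against 175.7, 148.6, 156.8 and 150.4 CPM in WT (-0.25 ± 0.07, adjusted p = 0.013). Neither pair of groups overlapped, and Cox4i1 shares exon bases with Emc8 on the other strand.

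Other tissue isoforms of complex IV were at low levels. Cox6b2, a form known from testis, rose in KO cultures and was the member called against the direction of the rest. It had 2.70, 2.31, 2.58 and 2.60 CPM in KO, against 1.57, 1.63, 1.53 and 2.10 CPM in WT (0.58 ± 0.15 SE, adjusted p = 0.0124). Cox6a2, the form of heart and skeletal muscle, had 1.13, 0.626, 0.785 and 0.423 CPM in KO, against 1.76, 1.51, 0.966 and 1.57 CPM in WT. KO replicate 1 lay above WT replicate 3 (-0.96 ± 0.29, adjusted p = 0.0218). The call was lost in 4 of 15 alternatives, among them those without WT replicate 1 (adjusted p = 0.0669), WT replicate 4 or KO replicate 2, and Cox6a2 shares exon bases with Itgad, an integrin gene on the other strand.

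Ndufa4, now counted as a subunit of complex IV, had 20.3, 21.7, 21.9 and 25.6 CPM in KO cultures in hypoxia, against 36.9, 22.8, 29.9 and 27.8 CPM in WT cultures. It was called lower (-0.39 ± 0.13 SE, adjusted p = 0.034), with KO replicate 4 above WT replicate 2. This call was lost in 8 of 15 alternatives. It did not hold without WT replicate 1 (adjusted p = 0.103), and it was lost in the same way when WT replicate 3, WT replicate 4, KO replicate 1, KO replicate 2 or KO replicate 3 was left out. Ndufa4l2, its relative known as a target of the hypoxia-inducible factor HIF1, had 3.17, 1.35, 0.817 and 1.01 CPM in KO, against 1.53, 3.04, 1.34 and 1.54 CPM in WT. The groups overlapped and it was not called (-0.23 ± 0.41, adjusted p = 0.695). It shares exon bases with Shmt2 on the other strand. Cox7a2l, which helps join complexes III and IV into supercomplexes, had 160.1, 126.6, 140.6 and 126.6 CPM in KO, against 147.6, 154.3, 125.3 and 126.4 CPM in WT. Its groups overlapped throughout, with a log2 fold change of 0.00 ± 0.09 (adjusted p = 0.997).

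**Figure D2:**
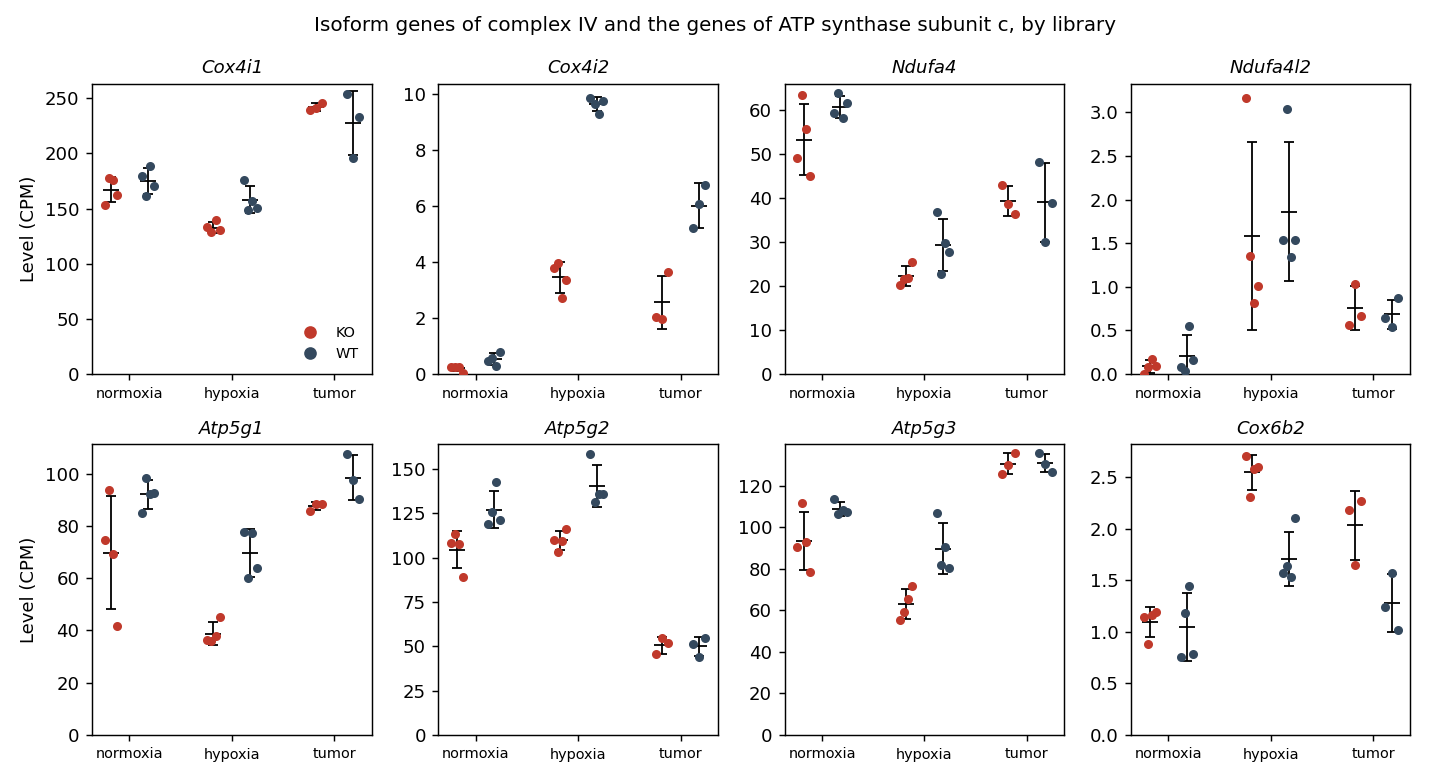
Levels of isoform genes of complex IV and of the 3 subunit c genes (vertical axes, CPM scaled within each experiment, starting at 0) in each KO and WT library, with the group mean and bars of 1 SD. Cox4i2 was 2.71 to 3.96 CPM in hypoxia KO libraries and 9.29 to 9.87 CPM in hypoxia WT libraries.

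In complex V, 15 of 17 tested members were called lower in KO cultures in hypoxia. All 5 genes of the F1 head, the part that makes ATP, were called lower, with a median of -0.40. Atp5b, the catalytic beta subunit, had 489.3, 490.8, 477.4 and 541.9 CPM in KO, against 792.1, 624.1, 810.1 and 699.7 CPM in WT (-0.55 ± 0.09 SE, adjusted p = 0.000618). Atp5d, the delta subunit of the central stalk, had 146.6, 128.5, 131.5 and 128.0 CPM in KO, against 185.4, 178.1, 171.1 and 170.6 CPM in WT. The groups did not overlap (-0.40 ± 0.06, adjusted p = 0.000692), and Atp5d shares exon bases with Cbarp on the other strand. Atp5o, a subunit of the peripheral stalk, had 30.5, 35.3, 35.8 and 36.3 CPM in KO, against 52.1, 44.2, 45.8 and 44.9 CPM in WT (-0.44 ± 0.08, adjusted p = 0.00148). A further annotated gene named Atp5o overlaps it on the same strand, so its reads may be split. Atp5o also shares exon bases with D430001F17Rik and Gm15976 on the other strand.

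Subunit c, which forms the rotating ring, is made from 3 genes that encode the same mature protein. Atp5g1 had 36.2, 35.8, 37.9 and 45.1 CPM in KO cultures in hypoxia, against 77.7, 60.1, 77.4 and 63.7 CPM in WT cultures (-0.85 ± 0.10 SE, adjusted p = 0.000128). Atp5g2 had 109.7, 103.0, 109.3 and 116.3 CPM in KO, against 158.1, 131.4, 135.8 and 136.0 CPM in WT (-0.36 ± 0.07, adjusted p = 0.00286). Atp5g3 had 55.3, 59.2, 65.4 and 71.9 CPM in KO, against 106.7, 81.7, 90.3 and 80.2 CPM in WT (-0.51 ± 0.10, adjusted p = 0.00323). No KO library reached a WT library in any of the 3 genes. Of the accessory genes of the membrane part, 4 of 5 were called lower, and of the peripheral stalk 3 of 4. Atp5h and Atp5l were the members not called, at -0.09 and -0.20.

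**Figure D3:**
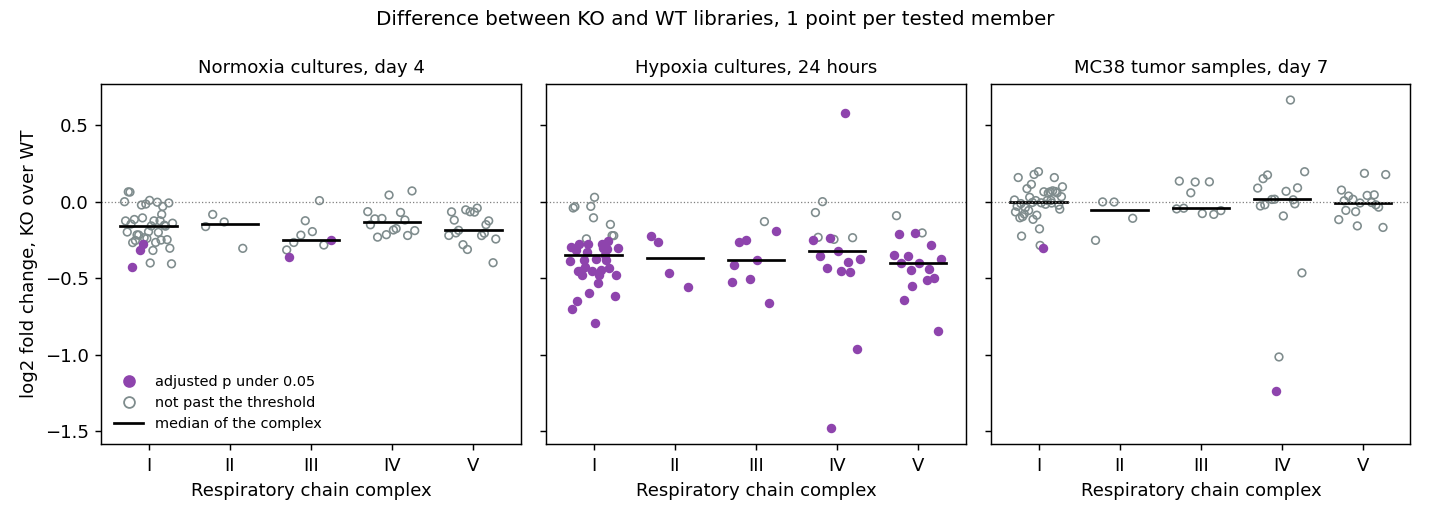
Log2 fold change of each tested member (KO over WT, vertical axis) by complex in normoxia, hypoxia and tumors, with filled points for members called at an edgeR adjusted p under 0.05, open points for the rest and a line at each complex's median. In hypoxia 68 of 86 tested members were called lower and Cox6b2 was called higher.

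Levels between genes were compared per kilobase of the principal transcript, as CPM per kb. Median levels in hypoxia were lowest for complex I, at 24.2 CPM per kb in KO and 32.3 CPM per kb in WT cultures, and highest for complex IV, at 102.8 CPM per kb in KO and 117.9 CPM per kb in WT. Those of complex V were 73.4 CPM per kb in KO and 84.5 CPM per kb in WT. These medians leave out the low tissue isoforms of complex IV and members without a principal transcript. Cox8a had the highest level in complex IV (273 CPM per kb in KO, 322 CPM per kb in WT), and Atp5b the highest in complex V (261 CPM per kb in KO, 382 CPM per kb in WT). The KO effect of tested genes varied with transcript length in hypoxia (Spearman rho 0.164 over 12383 genes), and most members are short. Among 83 members rho was -0.004. Members of up to 800 nt had a median log2 fold change of -0.37 (n = 42), against -0.19 for all 500 tested genes of that length. Members of 1200 to 2000 nt had -0.29 (n = 16), against -0.08 for all 2347 such genes. Members above 2000 nt had -0.35 (n = 7), against 0.01 for all 8718 such genes.

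Promoter windows, from 250 bases before to 50 bases after the RefSeq start (GRCm38.p6), were held for 68 of the 88 members. The motifs were searched on both strands. The motif of NRF1, a factor known to drive respiratory chain genes, reads GCGCA and GCGC with any base between them. It was found for 17 of 68 members (25.0%), against 11.1% of 10414 genes tested in hypoxia that have a window. CCGGAAG, the motif of GABPA (also called NRF2), was found for 17 members (25.0%), against 19.9%. AAGATGGCG, a motif of YY1, was found for 7 members (10.3%), against 3.48%, and ACGTG, the core of the element bound by hypoxia-inducible factors, for 17 (25.0%), against 29.2%. Matches of different motifs did not overlap in any member's window, and 4 members held both an NRF1 and a GABPA match. The median KO effect in hypoxia was -0.36 for members with an NRF1 match (15 of 17 called lower) and -0.35 for those without (38 of 51). For GABPA it was -0.33 with a match (14 of 17) and -0.36 without (39 of 51). For YY1 it was -0.48 with a match (6 of 7) and -0.35 without (47 of 61), and for ACGTG it was -0.36 with a match (13 of 17) and -0.35 without (40 of 51). A match is a description of the letters and not of binding.

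The 150 bases before the start are shown for 5 members that fell together in hypoxia and hold an NRF1 or GABPA match there, with the matches in capitals. They come from RefSeq, end before both the RefSeq and the GENCODE start, and are written on the gene's strand, which is the minus strand in each case. CTTCCGG is the GABPA motif read on the other strand. Ndufb4 (chr16:37654454-37654603) and Ndufs5 (chr4:123718203-123718352) are accessory subunits of complex I with 1 NRF1 match each. Uqcr11 (chr10:80406831-80406980) and Atp5e (chr2:174464106-174464255), the epsilon subunit of the F1 head, hold 1 GABPA match each. Cox6a1 (chr5:115348982-115349131) holds 2 NRF1 matches.
Ndufb4: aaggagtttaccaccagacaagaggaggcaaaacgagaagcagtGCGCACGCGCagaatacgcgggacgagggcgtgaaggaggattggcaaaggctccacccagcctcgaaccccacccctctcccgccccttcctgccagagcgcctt
Ndufs5: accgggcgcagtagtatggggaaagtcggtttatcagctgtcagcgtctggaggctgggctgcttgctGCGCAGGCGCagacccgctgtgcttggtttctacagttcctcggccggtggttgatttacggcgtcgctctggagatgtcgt
Uqcr11: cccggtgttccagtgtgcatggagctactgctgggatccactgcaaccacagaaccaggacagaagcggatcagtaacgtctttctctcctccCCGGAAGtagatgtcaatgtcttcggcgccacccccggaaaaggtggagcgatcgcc
Cox6a1: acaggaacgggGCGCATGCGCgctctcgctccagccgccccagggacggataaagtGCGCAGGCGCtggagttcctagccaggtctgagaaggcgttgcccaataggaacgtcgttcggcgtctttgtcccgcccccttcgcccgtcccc
Atp5e: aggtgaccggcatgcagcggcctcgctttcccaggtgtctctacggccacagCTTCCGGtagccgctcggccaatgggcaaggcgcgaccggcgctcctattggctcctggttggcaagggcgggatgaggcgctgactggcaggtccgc
In hypoxia Ndufb4 had 14.8 to 17.9 CPM in KO, against 18.4 to 25.3 CPM in WT (-0.48 ± 0.11 SE, adjusted p = 0.00601). Ndufs5 had 9.36 to 12.4 CPM in KO, against 11.98 to 16.7 CPM in WT, with an overlap (-0.45 ± 0.12, adjusted p = 0.0129). Atp5e had 19.4 to 21.6 CPM in KO, against 24.7 to 30.9 CPM in WT, with none (-0.40 ± 0.09, adjusted p = 0.00455).

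In normoxia, 5 of 83 tested members were called lower in KO cultures and 0 higher, against 4.17% of all 13950 tested genes called lower and 7.13% called higher (11.3% in either direction). With library size as the scaling in place of TMM, which moved the median of all tested genes to -0.11, 951 of all tested genes were called lower and 726 higher, against 582 lower and 995 higher with TMM. With that scaling 10 members were called lower and 0 higher. At an unadjusted p under 0.05 the number of members was 27 of 83, against 4457 of all 13950 tested genes. DESeq2 called 8 members lower, against 945 of all tested genes. The median log2 fold change was -0.18, against -0.02 for all tested genes. KO libraries lay below all WT libraries in 13 members, against 9.33% of all tested genes. The members not tested, because of low counts, were Cox4i2, Cox6a2, Ndufa4l2, Ndufs6b and Atp5c1-ps. Without WT replicate 3, Cox4i2 was tested and called lower in KO cultures (-1.54, edgeR adjusted p = 0.0426). Without a filter on low counts, Cox6a2 was called lower (-2.74, edgeR adjusted p = 0.0176) and Cox4i2 was not called. Over all normoxia libraries Cox4i2 had 71 counts and Cox6a2 had 75.

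The summed level of all members in normoxia was 6096 ± 549 CPM in KO and 6902 ± 162 CPM in WT cultures (SD, n = 4 each), with no overlap. KO cultures held 91.5% of the WT sum for complex I, 89.1% for II, 85.4% for III, 91.4% for IV and 85.7% for V. The groups overlapped in complexes I and IV and did not in II, III and V. Without KO replicate 4, the median log2 fold changes of complexes I to V were -0.12, -0.14, -0.15, -0.08 and -0.12, against -0.16, -0.15, -0.25, -0.13 and -0.19 with it. Neutrophil markers moved here as well, with 9 of 14 called higher and summed levels of 49740 to 71950 CPM in KO and 34970 to 47440 CPM in WT libraries. Of 11 monocyte and macrophage markers, 3 were called higher (3593 to 3806 CPM in KO, 2978 to 3682 CPM in WT), and 7 of 8 markers of mast cells, basophils and eosinophils (104 to 147 CPM in KO, 56.6 to 76.4 CPM in WT). Their part in the subunit levels was not tested.

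Ndufa10, an accessory subunit of complex I, had 63.0, 62.7, 59.5 and 57.6 CPM in KO cultures in normoxia, against 72.8, 77.9, 70.9 and 71.9 CPM in WT cultures (-0.27 ± 0.07 SE, adjusted p = 0.0363). Ndufa12 had 24.1, 21.7, 24.3 and 17.6 CPM in KO, against 26.9, 33.5, 29.3 and 28.4 CPM in WT (-0.43 ± 0.12, adjusted p = 0.0388). Ndufc2, of the membrane arm, had 39.5, 41.9, 37.7 and 32.5 CPM in KO, against 48.1, 46.9, 47.2 and 46.6 CPM in WT (-0.31 ± 0.09, adjusted p = 0.0437). KO libraries were below WT libraries in each of these 3 genes, and KO replicate 4 was the lowest. In complex III, Uqcrq had 62.8, 68.9, 66.6 and 52.9 CPM in KO, against 80.7, 77.3, 87.4 and 77.4 CPM in WT (-0.36 ± 0.09, adjusted p = 0.0336). Uqcrc2, a core protein that shares exon bases with Pdzd9 on the other strand, had 78.4, 79.6, 80.7 and 80.8 CPM in KO, against 102.0, 91.1, 92.5 and 94.1 CPM in WT (-0.25 ± 0.07, adjusted p = 0.0463). These calls are close to the threshold. None remained without KO replicate 3, WT replicate 1, WT replicate 2 or WT replicate 4, and without KO replicate 2 the number of called members was 14. It was 1 without KO replicate 1, and 2 (Uqcrc2 and Uqcrq) without KO replicate 4. Lower calls among all tested genes changed too, from 582 with all libraries. They numbered 246 without KO replicate 3, and 183, 309 and 241 without WT replicates 1, 2 and 4. Without KO replicates 1, 2 and 4 they numbered 382, 914 and 464.

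The KO effect in hypoxia minus that in normoxia was tested over the 16 culture libraries. Of 86 members, 0 were called in this difference by edgeR, against 0.288% of 15293 tested genes called lower and 0.19% called higher. At an unadjusted p under 0.05 the number was 10, against 1226 of all tested genes. DESeq2 called 1 lower, Sdhb, against 107 lower and 93 higher among all tested genes. The median difference was -0.18 (log2), against -0.01 for all tested genes, and 75 of 86 values were below 0. Sdhb had the smallest p (-0.34 ± 0.10 SE, adjusted p = 0.155 by edgeR). A larger KO effect in hypoxia was therefore not shown for any single member by edgeR. Oxygen is confounded in this design with the length of culture and with the table.

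In tumors, the median KO effect of the members was near 0. Of 86 tested members, 2 were called lower and 0 higher, against 3.04% of 14370 tested genes called lower and 3.28% called higher (6.32% in either direction). An unadjusted p under 0.05 was found for 9 members, against 2960 of all tested genes. The median log2 fold change was 0.00, against 0.01 for all tested genes. The summed level was 7270 ± 116 CPM in KO and 7428 ± 302 CPM in WT tumors (SD, n = 3 each), with an overlap. Complexes I, III and IV overlapped as well, at 99.5%, 99.5% and 101.9% of the WT sum. Complex II summed to 569, 595 and 604 CPM in KO, against 630, 639 and 622 CPM in WT tumors, with no overlap (93.5% of WT). Complex V summed to 2545, 2619 and 2575 CPM in KO, against 2799, 2696 and 2624 CPM in WT, also with no overlap (95.3%). Single members did not overlap in 12 cases with KO lower and 4 with KO higher, against 13.0% of all tested genes in each direction. In complex II, Sdha was at 83.9% and Sdhc at 92.8% of the WT level, and Sdhb and Sdhd were at 99.9%. In complex V the median log2 fold change was -0.005, with 9 of 17 tested members below 0.

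Cox4i2 had 2.05, 1.98 and 3.66 CPM in KO tumors, against 5.20, 6.09 and 6.77 CPM in WT tumors (-1.24 ± 0.24 SE, adjusted p = 0.009). It was thus called lower in tumors as in the hypoxia cultures, and its call was lost without KO replicate 2 (adjusted p = 0.0531). Ndufa9 had 72.8, 72.2 and 72.9 CPM in KO, against 91.6, 88.1 and 88.4 CPM in WT (-0.30 ± 0.07, adjusted p = 0.0177), and lost its call in 4 of 14 alternatives. Neither gene's groups overlapped. Sdha missed the threshold, with 180.3, 187.5 and 193.1 CPM in KO, against 212.6, 236.6 and 218.8 CPM in WT (-0.25 ± 0.07, adjusted p = 0.0528). Cox7a1, the muscle form of subunit 7a, missed it too, at -1.02 ± 0.29 (adjusted p = 0.0623). Both were called lower by DESeq2 (adjusted p = 0.0383 for Sdha and 0.0491 for Cox7a1) and by edgeR without a filter on low counts (0.0187 for Sdha and 0.0258 for Cox7a1). Cox6b2 had 2.18, 1.65 and 2.27 CPM in KO, against 1.24, 1.57 and 1.01 CPM in WT (0.67 ± 0.29, adjusted p = 0.21).

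Marker genes of several cell types were counted in the tumor samples. Of 10 T and NK cell markers, 6 were called lower in KO tumors (11.3 to 19.1 CPM summed in KO, 29.7 to 60.3 CPM in WT). Ncr1, a marker of NK cells, was above 0 (1.55, edgeR adjusted p = 0.118), and the rest of this list was below 0. Of 5 tested erythroid markers, 3 were called higher (163.6 to 183.6 CPM in KO, 76.5 to 125.8 CPM in WT). Of 8 tested neutrophil markers, 2 were called higher (453.7 to 503.6 CPM in KO, 362.9 to 391.8 CPM in WT), and none of 11 monocyte and macrophage markers (12700 to 13350 CPM in KO, 13110 to 14220 CPM in WT). The neutrophil markers Retnlg (-2.13), Lcn2 (-0.56) and Mmp8 (-0.05) were below 0 and not called. Epithelial markers were low (24.9 to 58.0 CPM in KO, 16.7 to 34.7 CPM in WT), with Cldn4 at 0 or not listed. Their part in the tumor values was not tested.

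Hypoxia cultures were then compared with normoxia cultures of the same genotype, on levels scaled over the 16 culture libraries. Oxygen cannot be told apart here from the length of the culture or from the table a library stands in. Both comparisons use the libraries of the KO comparisons above. In KO cells, 62 of 86 members were called lower and 5 higher in hypoxia, against 25.6% and 26.1% of all tested genes (51.7% in either direction). In WT cells, 41 were called lower and 8 higher, against 25.0% and 26.6% (51.7% in either direction). The median log2 fold change (hypoxia over normoxia) was -0.39 in KO and -0.21 in WT cells, against -0.02 and -0.01 for all tested genes. With library size as the scaling, the median of all tested genes moved to -0.11 in KO and -0.15 in WT cells. All tested genes called lower and higher then numbered 4931 and 3327 in KO cells and 5503 and 3138 in WT cells, against 3909 and 3996 in KO cells and 3824 and 4075 in WT cells with TMM. Of the members, 65 were then called lower and 5 higher in KO cells, and 53 lower and 6 higher in WT cells.

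By complex, complex I had 30 of 39 members called lower in KO and 23 in WT cells, complex II 3 and 1 of 4, and complex III 7 and 6 of 9. Complex IV had 9 called lower and 4 higher of 17 in KO cells and 6 lower and 4 higher in WT cells. Complex V had 13 of 17 called lower and 0 higher in KO cells, and 5 lower and 3 higher in WT cells. The medians of complexes I to V were -0.43, -0.30, -0.50, -0.22 and -0.36 in KO cells, and -0.29, -0.04, -0.36, -0.03 and -0.17 in WT cells. These medians depend on the scaling. With library size as the scaling they were -0.52, -0.40, -0.59, -0.31 and -0.45 in KO cells. In WT cells they were then -0.43, -0.18, -0.50, -0.16 and -0.30.

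The genes called higher in hypoxia included isoforms of complex IV. Cox4i2 had 3.96, 4.16, 2.82 and 3.47 CPM in hypoxia KO and 10.3, 9.95, 9.68 and 10.1 CPM in hypoxia WT cultures. Its normoxia levels were 0.243, 0.240, 0.258 and 0.0449 CPM in KO and 0.461, 0.551, 0.284 and 0.754 CPM in WT cultures. It was higher in hypoxia by 4.15 ± 0.28 (log2, SE) in KO cells (adjusted p = 7.97e-10) and by 4.27 ± 0.22 in WT cells (adjusted p = 4.7e-11), and the difference between the genotypes was -0.13 ± 0.50 (adjusted p = 0.991). Ndufa4l2 had 95, 41, 25 and 31 counts in hypoxia KO and 48, 95, 43 and 49 counts in hypoxia WT cultures. In normoxia it had 0, 2, 4 and 2 counts in KO and 2, 1, 13 and 4 counts in WT cultures. It was called higher in hypoxia in KO (4.22 ± 0.72, adjusted p = 0.000113) and in WT cells (3.26 ± 0.59, adjusted p = 0.000217). Cox6b2 was higher by 1.33 ± 0.19 in KO cells (adjusted p = 1.7e-05) and by 0.82 ± 0.20 in WT cells (adjusted p = 0.00215). Cox6a2 was higher by 2.97 ± 0.62 in KO cells (adjusted p = 0.000642) and by 1.19 ± 0.40 in WT cells (adjusted p = 0.0176), from 9 counts over the 4 normoxia KO libraries and 66 over the 4 normoxia WT libraries. In WT cells it lost this call without normoxia WT replicate 1, 2 or 4.

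Ndufa10 was the complex I gene called higher in hypoxia. It had 78.2, 70.7, 76.4 and 84.1 CPM in hypoxia KO cultures, against 60.0, 59.8, 57.2 and 56.3 CPM in normoxia KO cultures. In WT cultures it had 93.5, 95.5, 94.6 and 89.9 CPM in hypoxia, against 70.4, 75.0, 67.7 and 68.7 CPM in normoxia. The log2 fold change was 0.41 ± 0.07 in KO cells (adjusted p = 4.7e-05) and 0.41 ± 0.06 in WT cells (adjusted p = 4.54e-05). In complex V, Atp5mpl, a small subunit of the membrane part, was called higher in WT cells (0.41 ± 0.10, adjusted p = 0.00227), as was Atp5g2 (0.26 ± 0.08, adjusted p = 0.0134). Atp5g2 was not called without hypoxia WT replicate 1 (adjusted p = 0.0578) or with library size as the scaling. Atp5mpl had 35.0, 28.1, 32.1 and 28.6 CPM in hypoxia WT cultures, against 25.5, 20.9, 23.4 and 23.3 CPM in normoxia WT cultures. Its difference between genotypes had an adjusted p of 0.388.

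Members with the opposite direction came from all 5 complexes. Ndufa1, a small subunit of the membrane arm, had 8.71, 8.81, 7.78 and 7.88 CPM in hypoxia KO cultures, against 18.2, 21.3, 23.6 and 23.9 CPM in normoxia KO cultures (-1.39 ± 0.12 SE, adjusted p = 3.29e-08). In WT cultures it had 12.5, 10.7, 11.8 and 8.28 CPM in hypoxia, against 22.4, 19.2, 23.9 and 21.2 CPM in normoxia (49.9% of the normoxia level, adjusted p = 1.64e-06). It was picked out after its values were seen. Ndufa13 was at -1.15 ± 0.10 in KO and -0.93 ± 0.10 in WT cells, and Ndufb11 at -0.76 ± 0.08 in KO and -0.67 ± 0.08 in WT cells. Ndufa4 had 21.1, 22.8, 22.8 and 26.5 CPM in hypoxia KO cultures, against 46.9, 60.6, 53.6 and 44.0 CPM in normoxia KO cultures (-1.14 ± 0.13). In WT cultures Ndufa4 had 38.5, 23.5, 31.2 and 28.8 CPM in hypoxia, against 57.5, 61.5, 55.6 and 59.0 CPM in normoxia (-0.94 ± 0.12). Ndufa4 and Ndufa4l2 thus moved in opposite directions between the 2 conditions in both genotypes.

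Cox7a2 was lower in hypoxia, at -0.75 ± 0.09 in KO and -0.67 ± 0.09 in WT cells (SE). In complex III, Uqcrq was at -0.67 ± 0.09 in KO and -0.62 ± 0.09 in WT cells, and Uqcr10 at -0.92 ± 0.10 in KO and -0.55 ± 0.10 in WT cells. In complex II, Sdha was at -0.41 ± 0.06 in KO and -0.35 ± 0.06 in WT cells. Atp5j and Atp5pb, of the peripheral stalk, share exon bases with Gabpa and Wdr77 on the other strand. Atp5j was at -0.57 ± 0.08 in KO and -0.44 ± 0.08 in WT cells, and Atp5pb at -0.54 ± 0.07 in KO and -0.44 ± 0.07 in WT cells. All 12 of these values were called.

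**Figure D4:**
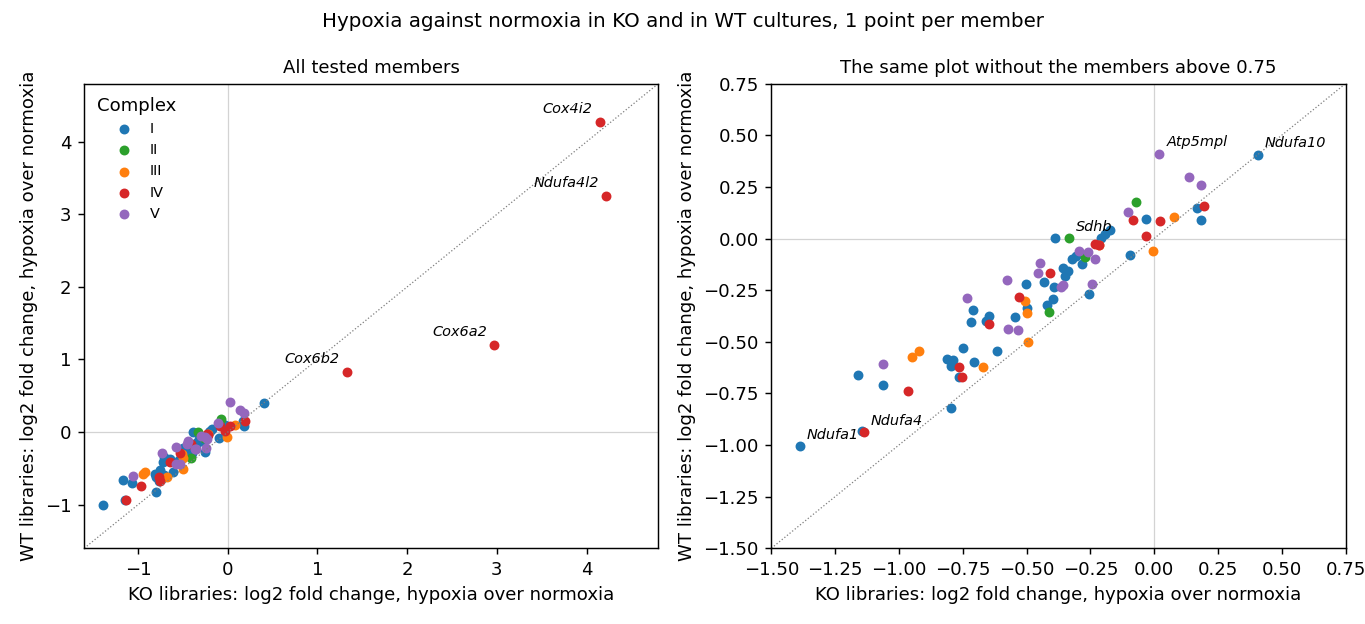
Log2 fold change of each tested member between hypoxia and normoxia in KO cells (horizontal axis) and in WT cells (vertical axis), scaled over the 16 culture libraries. Colors mark the complex, the dotted line marks equal values, and the right panel leaves out members above 0.75. Cox4i2 stands at 4.15 in KO and 4.27 in WT cells, and most other members lie below 0 in both genotypes.

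Genes that build and serve the complexes were counted by list in the KO comparisons, to be read against 17.6% of all tested genes called lower in hypoxia, 4.17% in normoxia and 3.04% in tumors, where 3.28% were called higher. In hypoxia, 7 of 17 assembly factors of complex I were called lower in KO cultures, among them Nubpl (-0.68), which delivers iron-sulfur clusters, Ndufaf2 (-0.75) and Ndufaf5 (-0.60). Of the assembly factors of complex III 2 of 6 were called lower (Uqcc2 at -0.69 and Uqcc1 at -0.27), of complex IV 4 of 18 (among them Lrpprc at -0.44, Coa7 at -0.47 and Cox10 at -0.38), of complex V 1 of 4 (Atpaf2 at -0.37) and of complex II 0 of 4. The counts for complexes IV and V are close to the share of all tested genes. The mitochondrial carriers and channels had 6 of 8 called lower, led by the ADP/ATP carriers Slc25a4 (-0.72, adjusted p = 2.05e-05) and Slc25a5 (-0.52, adjusted p = 0.00079), with the channel gene Vdac1 at -0.34. Coenzyme Q synthesis had 4 of 13 called lower (among them Coq3 at -0.85, Coq5 at -0.40 and Coq6 at -0.38), and cytochrome c and its lyase 0 of 2. Of 13 regulators of respiratory chain genes, 4 were called lower, among them the coactivators Ppargc1b (-0.64) and Pprc1 (-0.63) and the mitochondrial RNA polymerase Polrmt (-0.40).

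Subunits encoded by the mitochondrial genome were counted apart. In hypoxia 0 of 13 were called in either direction in KO cultures (median 0.03), against 34.9% of all tested genes. In normoxia 3 were called higher, against 7.13% of all tested genes, mt-Nd4l (0.50), mt-Nd4 (0.48) and mt-Cytb (0.45), with a median of 0.37. In tumors 0 of 13 were called (median 0.41). The 13 genes took 3.65% to 5.51% of counts in the culture libraries and 0.0864% to 0.196% in the tumor libraries. The other lists gave few calls in normoxia, with 1 of 13 coenzyme Q genes lower (Coq3 at -0.60), 3 of 8 carriers and channels lower (Slc25a4 at -0.43, Vdac3 at -0.30, Vdac1 at -0.33), and 0 among the assembly factors and regulators. In tumors Ppargc1b was called higher (1.02) and Myc lower (-0.63) among the 13 regulators, Coa5 (-0.30) lower among 18 complex IV assembly factors, and Vdac1 (-0.64) lower among the carriers and channels.

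Genes known to adjust mitochondria to low oxygen, a list that includes Cox4i2, had 3 of 10 called lower and 1 higher in KO cultures in hypoxia, against 17.6% and 17.4% of all tested genes. These were Cox4i2, Higd1a (-0.50), a small inner membrane protein, the protease gene Lonp1 (-0.34), and Mxi1 (0.29), a repressor of MYC targets. In KO tumors 6 of 10 were called lower, against 3.04% of all tested genes, among them Mxi1 (-0.57), Bnip3 (-0.43), a receptor for removal of mitochondria, and Pdk1 (-0.35), which holds back pyruvate oxidation. In KO normoxia cultures 1 of 8 was called lower (Pdk1 at -0.65), against 4.17%. Between hypoxia and normoxia, 7 of 10 were called higher and 1 lower in KO cells and likewise in WT cells, against 26.1% higher and 25.6% lower of all tested genes in KO cells and 26.6% and 25.0% in WT cells.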

How the data were processed

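RNA of 22 samples was sequenced from SMART-Seq libraries (Takara), per the labels' protocols. The authors deposited raw counts per gene, per the submitters' processing notes with Subread and featureCounts on GRCm38.p6 (no versions given). They also deposited a normalized signal, made with DESeq2 per the same notes, in which each column is the counts times 1 factor per library. Whether counting used strand is not given in the sources used here. No columns of values were left unused.

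The main fits, 1 per experiment, used edgeR 4.0.16 under R 4.3.3 (filterByExpr, TMM, robust quasi-likelihood test, Benjamini-Hochberg adjustment over all tested genes, threshold 0.05). The difference of KO effects and the oxygen comparisons used a model of 4 groups over the 16 culture libraries. Levels are CPM on TMM-scaled library sizes, and SE is the fold change divided by the square root of F. Sums cover every listed member, copy genes included. Annotation was GENCODE M21. The procedure was tested on simulated data.

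Alternatives were DESeq2 1.42.0, limma 3.58.1 on the deposited signal, other scalings, no filter, a fold threshold, a replicate block and leaving out libraries. Replicates of a group were not copies of each other (lowest chi-square divided by its degrees of freedom 4.91).

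The members, the lists and the rule for named members were chosen with earlier results of these data known. Named were up to 4 members per complex with the smallest p in the hypoxia KO comparison, up to 3 in the other KO comparisons, up to 2 per direction in the WT oxygen comparison, members called against the majority, and a set fixed by name (Sdh genes, Cyc1, Atp5g1 to Atp5g3, Cox4i1, Cox4i2, Cox7a2l, Ndufa4 and Ndufa4l2). Lists give up to 3 examples with the smallest p.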

Additional observations from a re-analysis of the deposited data

Results flagged for a closer look

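The levels of named members and the complex sums were examined in 170 groups of 4 libraries, and in 8 of these 1 library lay far from the other 3. Chance gives this in about 1 in 20 groups, so 8 is no more than chance gives over 170 groups, and no explanation was tested. In normoxia, KO replicate 4 was low for 3 members. It had 142.2 CPM of Atp5d, against 180.8 to 186.5 CPM in the other KO libraries, 39.8 CPM of Ndufb8, against 51.8 to 53.9 CPM, and 0.0459 CPM of Cox4i2, against 0.252 to 0.268 CPM. KO replicate 2 had 0.881 CPM of Cox6b2, against 1.15 to 1.19 CPM in the other KO libraries. In hypoxia, KO replicate 1 had 30.5 CPM of Atp5o, against 35.3 to 36.3 CPM in the other KO libraries. WT replicate 2 had 3.04 CPM of Ndufa4l2, against 1.34 to 1.53 CPM, WT replicate 1 had 49.0 CPM of Ndufb11, against 43.7 to 44.1 CPM, and WT replicate 3 had 32.2 CPM of Ndufc2, against 27.5 to 28.1 CPM in the other WT libraries.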

How the results depend on the processing

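Over 89 called values of named members, 1730 recomputed values held 160 that no longer passed the threshold and 0 that changed direction. The hypoxia count of 69 called members was 20 with a fold threshold of 1.2 and 55 to 73 with 1 library left out. The normoxia count of 5 became 10 with library size alone, 8 with DESeq2, 0 with the fold threshold and 0 to 14 with 1 library left out, and 7 without KO replicate 4 and WT replicate 3. The tumor count of 2 became 4 without a filter, 4 with DESeq2, 1 with the fold threshold, 3 with counts thinned to the smallest library (chosen after seeing the data) and 0 to 3 with 1 library left out. The difference of KO effects had 0 calls, 1 with DESeq2 (Sdhb, adjusted p = 0.0187) and 0 with any library left out. The oxygen count in KO cells, 67, was 46 with the fold threshold and 56 to 69 with 1 library left out, and the count in WT cells, 49, was 28 and 43 to 52. Among all tested genes, the higher and lower calls in normoxia were 1449 and 945 with DESeq2 and 286 and 130 with the fold threshold, against 995 and 582. With 1 library left out, the higher calls were 286 to 1319 and the lower calls 183 to 914. In hypoxia they were 1167 and 792 with the fold threshold, against 2607 and 2638. In tumors they were 644 and 719 without a filter and 182 and 151 with the fold threshold, against 471 and 437. For the difference of KO effects they were 93 and 107 with DESeq2 and 10 and 24 with the fold threshold, against 29 and 44. Apart from the smaller number of libraries and the stricter threshold, the causes were not tested. Depth limits the isoforms with few counts in normoxia.

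Same-numbered KO and WT libraries correlated in their deviations by 0.04, 0.37, 0.12 and -0.06 in normoxia, -0.09, -0.12, -0.16 and 0.02 in hypoxia and 0.19, 0.08 and 0.22 in tumors, with pairs under 0.1 in each experiment, so the numbers were not taken as pairs. In the cultures not every library correlated best with its own number, whereas in tumors each did, a hint from the data and not the design. With a replicate block 9 members were called in normoxia, 60 in hypoxia, 5 in tumors (Cox4i2, Ndufa9, Sdha, Cox7a1 and Atp5b), 0 for the difference, and 60 in KO and 44 in WT cells between the oxygen conditions. Among all tested genes the block gave 1164 higher and 1102 lower calls in tumors, against 471 and 437, and 7 and 8 for the difference, against 29 and 44.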
